A study of Mus musculus with 12 samples.

Results

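The Hox genes were followed in RNA sequencing libraries of mouse small intestine and liver. They were chosen by name alone, as every row of the deposited expression table whose symbol is Hoxa, Hoxb, Hoxc or Hoxd followed by a number. This gave 31 of the 34348 genes of the table, 9 in the A cluster, 10 in the B cluster, 6 in the C cluster and 6 in the D cluster. Hoxa11, Hoxa13, Hoxc11, Hoxc12, Hoxc13, Hoxd1, Hoxd11 and Hoxd12 were not analysed here. All mice were C57BL/6. The control groups had received phosphate-buffered saline (PBS), and the other groups are labelled LCWE-induced. LCWE is the usual abbreviation of a Lactobacillus casei cell wall extract, given to mice to bring on a vasculitis resembling that of Kawasaki disease. The authors' comparison table names the treated groups LCWECFA, without an explanation of CFA in the labels. The 4 groups, intestine PBS, intestine LCWE, liver PBS and liver LCWE, held 3 libraries each, numbered 2, 3 and 4 for PBS and 1, 2 and 4 for LCWE. Neither the segment of small intestine taken nor the animal behind each library is given, so p-values measure only the spread between these libraries, which may be technical.

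Hox genes encode homeodomain transcription factors and lie in clusters in which the order of the genes follows the order of the body regions where they act in the embryo. Low paralogue numbers, at the 3′ end of a cluster, are active towards the head, and high numbers, at the 5′ end, towards the tail. In the gut, nested Hox domains in the mesoderm and its derivatives, muscle and connective tissue, help to set apart stomach, small intestine, caecum and colon, and adult gut keeps much of this pattern. Hox proteins bind DNA with PBX and MEIS partners, retinoic acid and CDX factors act on the clusters in development, and Polycomb complexes keep silent Hox genes silent.

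Reads counted on genes ranged from 30294594 to 40253006 per intestinal library and from 34741958 to 44921885 per liver library. Levels are given as RPKM, which scales a gene's reads to its length and to the reads of the library, and differences as LCWE minus PBS on log2(RPKM + 0.5). Genes counted as higher or lower by their mean are counted on that log2 scale. The tissue labels were checked with Fabp2, the fatty acid binding protein of enterocytes, which stood at 676 to 9408 RPKM in the intestine and at 38.6 to 113 RPKM in liver. Alb, serum albumin of hepatocytes, stood at 51.6 to 145 RPKM in the intestine and at 10519 to 23555 RPKM in liver. In the PBS intestine 3 reads over the group correspond to 0.00496 RPKM for Hoxa3, the longest member, and to 0.0342 RPKM for Hoxa6, the shortest, counting error only.

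Hox RNA in the control intestine came mostly from the middle paralogues of the B and C clusters. A mean of at least 0.5 RPKM was reached by 16 of 31 members in the PBS intestine and by 18 in the LCWE intestine, against 1 in the PBS liver and 2 in the LCWE liver. In the PBS intestine the highest means belonged to Hoxc8, a gene of the trunk skeleton and its motor neurons, at 6.47 ± 2.81 RPKM (SD, n = 3), and to Hoxb7, known for its promoter in the ureteric bud of the kidney, at 5.74 ± 2.08 RPKM. Hoxb4, a regulator of blood stem cell growth, followed at 3.19 ± 0.444 RPKM, Hoxb6, a gene of the lateral mesoderm, at 3.08 ± 1.70 RPKM and Hoxc6 at 2.87 ± 1.04 RPKM. In this order the libraries of neighbours overlapped, except that every Hoxb7 library was above every Hoxb4 library. The next was Hoxa7 at 1.13 ± 0.191 RPKM, below all libraries of the first 5 genes.

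**Figure D1:**
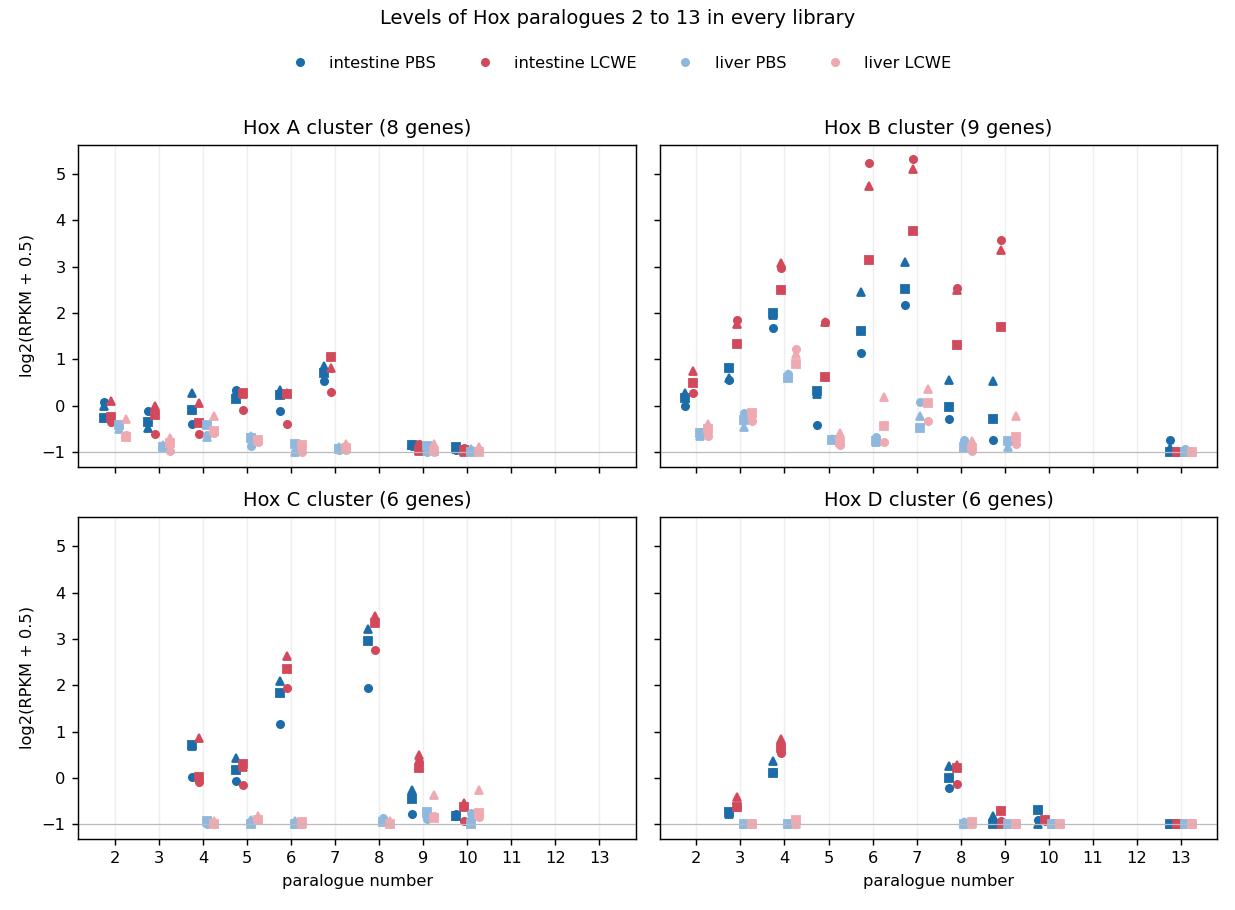
RPKM of the Hox genes of paralogue groups 2 to 13 on the log2(RPKM + 0.5) scale against paralogue number, 1 panel per cluster, with colours for the 4 groups and circles, squares and triangles for the first, second and last replicate number of a group. The line at -1 marks 0 RPKM. In the B panel the LCWE intestine stands above the PBS intestine from paralogue 2 to 9, with the widest gaps at 6 to 9, while the A panel shows mixed colours and liver values lie low throughout, with Hoxb4 the highest.

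Several members of the first and last paralogue groups were nearly silent in the intestine. Hoxb1, a gene of the hindbrain, stood at no more than 0.0127 RPKM in any intestinal library. It had 0 reads in the 3 PBS intestines, which at 3 reads allows a level of up to 0.0129 RPKM over the group (counting error only). Hoxa9, Hoxa10, Hoxd9, Hoxd10, Hoxd13 and Hoxb13, all of posterior groups, reached at most 0.0623, 0.0382, 0.108, 0.12, 0.01 and 0.095 RPKM. Hoxc10 reached 0.186 RPKM and Hoxd3, an anterior gene, 0.247 RPKM. Hoxa3 and Hoxa4 ran between 0.157 and 0.496 RPKM and between 0.156 and 0.704 RPKM. Their groups overlapped, and they did not pass the filter for testing.

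The comparison of LCWE with PBS intestine asks how the treated gut differs from the control gut. In the B cluster, levels of Hoxb2 to Hoxb9 stood higher in the LCWE libraries, by the most at Hoxb9. Hoxb13, further 5′, had 8, 0 and 2 reads in PBS and 0 in each LCWE library. Hoxb9, a gene of the thoracic region, had a mean of 0.451 RPKM in PBS and 7.93 RPKM in LCWE, 17.6 times as much. The means of Hoxb6, Hoxb8 and Hoxb7 were 7.76, 6.99 and 5.02 times as high in LCWE, those of Hoxb4 and Hoxb3 were 2.13 and 2.49 times as high, and that of Hoxb2 was 1.52 times as high. Levels of the A cluster overlapped between the groups. None of these differences passed the adjusted threshold of the main test, as given below.

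The 5′ members of the B cluster spread widely between libraries. Hoxb9 (mm10 chromosome 11, 96271457 to 96276595) stood at 0.102, 0.315 and 0.936 RPKM (PBS 2, 3 and 4) against 11.35, 2.74 and 9.70 RPKM (LCWE 1, 2 and 4), from 10, 26 and 73 reads and from 1176, 245 and 846 reads. Every LCWE library was above every PBS library, and the highest library held 111.5 times the level of the lowest. Within the PBS group alone the ratio of highest to lowest was 9.20, and within LCWE it was 4.14.

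Hoxb8 (chromosome 11, 96281905 to 96285315), known for its hold on myeloid progenitors when overexpressed, stood at 0.318, 0.486 and 0.977 RPKM (PBS) against 5.31, 1.99 and 5.14 RPKM (LCWE). Hoxb7 (96286623 to 96290162) stood at 3.99, 5.20 and 8.04 RPKM (PBS) against 39.4, 13.1 and 34.0 RPKM (LCWE). For Hoxb6 (96292476 to 96301569) the PBS libraries gave 1.71, 2.54 and 4.97 RPKM and the LCWE libraries 37.0, 8.31 and 26.2 RPKM. For each of Hoxb6, Hoxb7, Hoxb8 and Hoxb9 the libraries fell in a single order from low to high, namely PBS 2, PBS 3, PBS 4, LCWE 2, LCWE 4 and LCWE 1. LCWE 2 lay nearest to the PBS group for these genes.

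Towards the 3′ end the gap narrowed. Hoxb5 (96303336 to 96306121), which acts in the neural crest cells that form the enteric nervous system, stood at 0.254, 0.740 and 0.699 RPKM (PBS) against 2.996, 1.05 and 2.999 RPKM (LCWE). Hoxb4 (96318267 to 96321638) stood at 2.68, 3.52 and 3.37 RPKM (PBS) against 7.30, 5.17 and 7.96 RPKM (LCWE). Both genes kept the groups apart, Hoxb4 with less spread within each.

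Hoxb3 (96323326 to 96347930) gave 0.961, 1.26 and 1.002 RPKM (PBS) against 3.09, 2.01 and 2.90 RPKM (LCWE). Hoxb2 (96350525 to 96354012), a gene of the hindbrain, gave 0.488, 0.627 and 0.710 RPKM (PBS) against 0.712, 0.901 and 1.17 RPKM (LCWE), so that its groups barely parted. PBS 2 was the lowest library for 8 of the 8 B members tested. The highest was LCWE 1 for 5 of them and LCWE 4 for 3.

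**Figure D2:**
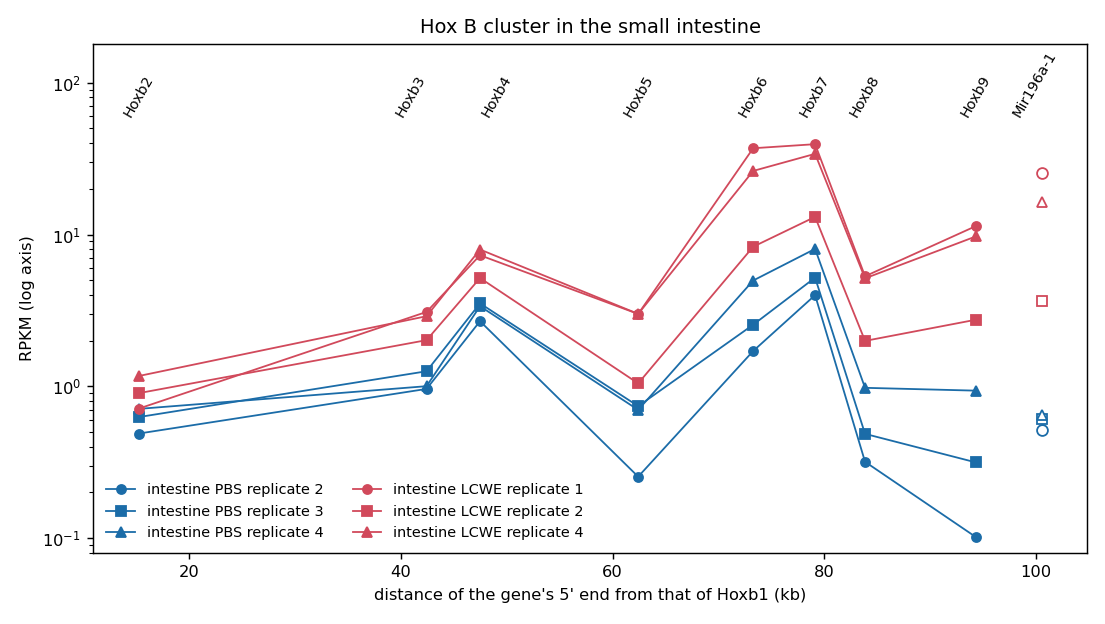
RPKM on a log axis of Hoxb2 to Hoxb9 and, as open symbols, of the microRNA gene Mir196a-1 in the 6 intestinal libraries, against the distance of each 5′ end from that of Hoxb1 in kb. The LCWE lines (red) lie above the PBS lines (blue) at every gene, close together at Hoxb2 and far apart at Hoxb6 to Hoxb9, where the PBS libraries also separate.

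In the test of all genes, limma on log2(RPKM + 0.5) with Benjamini-Hochberg adjustment, 19 of 31 Hox genes passed the filter of 0.5 RPKM in at least 3 of the 6 libraries and none passed the threshold of an adjusted p below 0.05. The same held for all 17510 genes tested, of which 0% were called. At an unadjusted p below 0.05 there were 9 of the 19, all higher, where 7.69% of all genes were higher at that p and 12.6% differed either way. Voom on the reads recovered from RPKM also called no gene. The LCWE libraries stood wholly above the PBS libraries for 10 of the 19, against 13.2% of all genes, and wholly below for 0, against 6.15%. The 10 were Hoxb2 to Hoxb9, Hoxc9 and Hoxd4. Of these, Hoxb2, Hoxb5, Hoxb8, Hoxb9 and Hoxc9 passed the filter only with the help of their LCWE values, so their place among the genes tested is not independent of the difference.

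Hoxb9 had the widest difference, 3.04 ± 0.54 (SE) on the log2(RPKM + 0.5) scale, with an adjusted p of 0.186 by limma. Hoxb6 differed by 2.64 ± 0.57 (adjusted p = 0.228 by limma), Hoxb7 by 2.14 ± 0.44 (0.213) and Hoxb8 by 2.03 ± 0.38 (0.192). Hoxb5 followed with 1.36 ± 0.37 (0.268), and Hoxb3 and Hoxb4 with 0.997 ± 0.17 (0.186) and 0.97 ± 0.18 (0.189). Hoxb2 differed by 0.36 ± 0.17 (0.442). When the 4 groups shared 1 fit, and so 1 estimate of the spread per gene, 7 Hox genes passed as higher, namely Hoxb3, Hoxb4, Hoxb6, Hoxb7, Hoxb8, Hoxb9 and Hoxc9, where 0.419% of 18619 genes did. That spread includes livers in which most of these genes were near 0. The SD of Hoxb9 on the log2(RPKM + 0.5) scale was 0.64 and 1.02 in the PBS and LCWE intestine but 0.070 and 0.32 in liver, and that of Hoxb8 was 0.44 and 0.69 but 0.090 and 0.10. The 7 calls therefore do not rest on the spread of the intestinal libraries alone. For Hoxb9 the adjusted p by limma ran from 0.0144 in that fit to 0.579 over the alternatives. The authors' deposited table lists 220 genes for the intestine, with a false discovery rate below 0.05 for 0, and holds 0 of the 31 Hox genes.

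**Figure D3:**
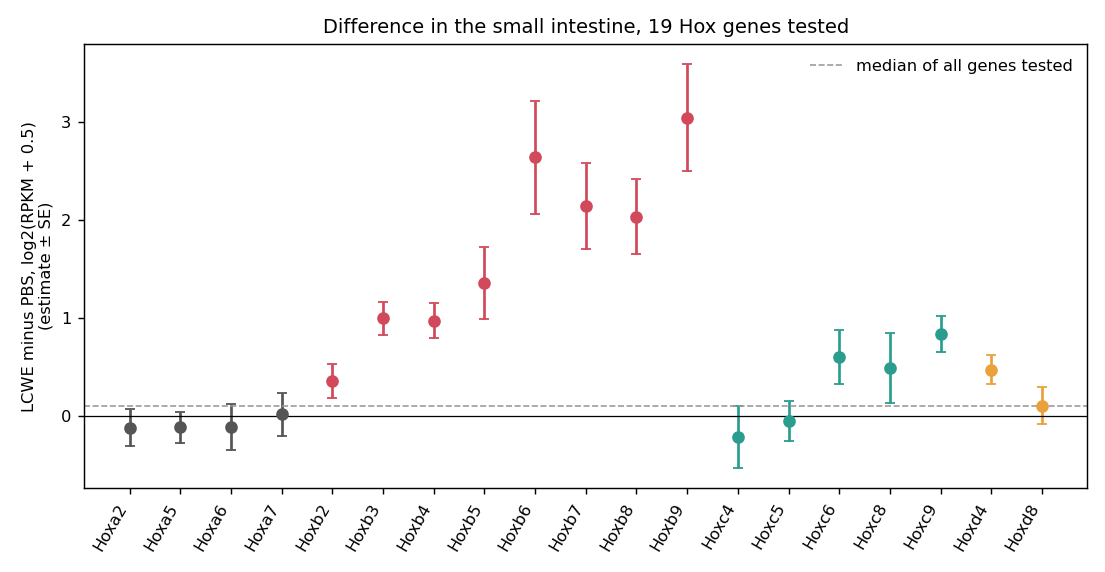
Difference between LCWE and PBS intestine on the log2(RPKM + 0.5) scale for the 19 Hox genes tested, as the limma estimate with its SE, coloured by cluster. The dashed line is the median of all genes tested (0.11). The B cluster climbs, though not steadily, from 0.36 at Hoxb2 to 3.04 at Hoxb9, while the A genes lie on or near 0.

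The C cluster was mixed. Hoxc9 (chromosome 15, 102976439 to 102985099), which sets thoracic motor columns, stood at 0.0862, 0.231 and 0.340 RPKM (PBS) against 0.767, 0.652 and 0.911 RPKM (LCWE), with no overlap and a difference of 0.84 ± 0.19 (adjusted p = 0.229 by limma). Hoxc8 (102990607 to 102994111) stood at 3.34, 7.30 and 8.78 RPKM (PBS) against 6.24, 9.71 and 10.8 RPKM (LCWE), and Hoxc6 (102998257 to 103011881) at 1.74, 3.07 and 3.78 RPKM and at 3.34, 4.60 and 5.65 RPKM. For both, LCWE 1 fell among the PBS libraries. Their differences were 0.50 ± 0.36 (0.539) and 0.60 ± 0.28 (0.429).

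Hoxc4 and Hoxc5 leaned the other way with wide overlap. Hoxc4 gave 0.510, 1.13 and 1.11 RPKM (PBS) against 0.435, 0.505 and 1.31 RPKM (LCWE), a difference of -0.21 ± 0.31 (adjusted p = 0.746 by limma). Hoxc5 gave 0.449, 0.617 and 0.855 RPKM and 0.394, 0.737 and 0.679 RPKM, a difference of -0.047 ± 0.20 (0.915). The direction of Hoxc5 turned without PBS 4 or LCWE 1, and those of Hoxc5 and Hoxc4 with the replicate number as a block.

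In the A cluster no member tested showed separate groups. Hoxa5 (chromosome 6, 52201754 to 52204587), which patterns lung and gut mesenchyme, stood at 0.768, 0.599 and 0.721 RPKM (PBS) against 0.437, 0.706 and 0.692 RPKM (LCWE). Hoxa6 stood at 0.420, 0.679 and 0.755 RPKM and at 0.256, 0.693 and 0.709 RPKM, and Hoxa7 (52214491 to 52221854) at 0.938, 1.14 and 1.32 RPKM and at 0.726, 1.58 and 1.25 RPKM. LCWE 1, the highest library for Hoxb3 and for Hoxb6 to Hoxb9, was the lowest for 4 of the 4 A members tested.

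Hoxa2, a gene of the face and neck, lay between 0.280 and 0.566 RPKM in the intestine. The 4 differences ran from -0.11 to 0.020, with an SE of 0.16 to 0.24 and adjusted p from 0.737 to 0.969 by limma. The sign for Hoxa7 turned with quantile or median-ratio scaling and without PBS 2, LCWE 2 or LCWE 4, that for Hoxa5 without LCWE 1, and that for Hoxa6 without LCWE 1 or with the replicate number as a block. Highest and lowest libraries differed by 1.76 to 2.95 times in this cluster, against 9.88 to 111.5 times for Hoxb5 to Hoxb9. In the D cluster Hoxd4 (chromosome 2, 74711929 to 74729160), a gene of the neck vertebrae, stood at 0.586, 0.583 and 0.784 RPKM (PBS) against 0.952, 1.07 and 1.28 RPKM (LCWE) (0.47 ± 0.15, adjusted p = 0.316 by limma). Hoxd8 overlapped, with 0.353, 0.501 and 0.698 RPKM (PBS) against 0.416, 0.662 and 0.710 RPKM (LCWE).

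The sum of Hox RPKM was 21.4, 32.0 and 41.6 in the PBS intestine and 122, 57.7 and 116 in the LCWE intestine. The B cluster held 49.5%, 45.8% and 49.8% of it in PBS and 87.8%, 61.1% and 77.5% in LCWE. Groups 9 to 13 held 2.25%, 2.58% and 3.63% in PBS and 10.1%, 6.45% and 9.33% in LCWE, where most of it was Hoxb9. The level of Hoxb9 as a percentage of that of Hoxb4 was 3.79, 8.97 and 27.8 in PBS and 155, 53.1 and 122 in LCWE. Hoxc8 was the most abundant member in PBS 3 and PBS 4, and Hoxb7 in PBS 2 and in the 3 LCWE libraries. As these are bulk samples, a difference in the number of cells of a type and one in the RNA per cell cannot be told apart.

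**Figure D4:**
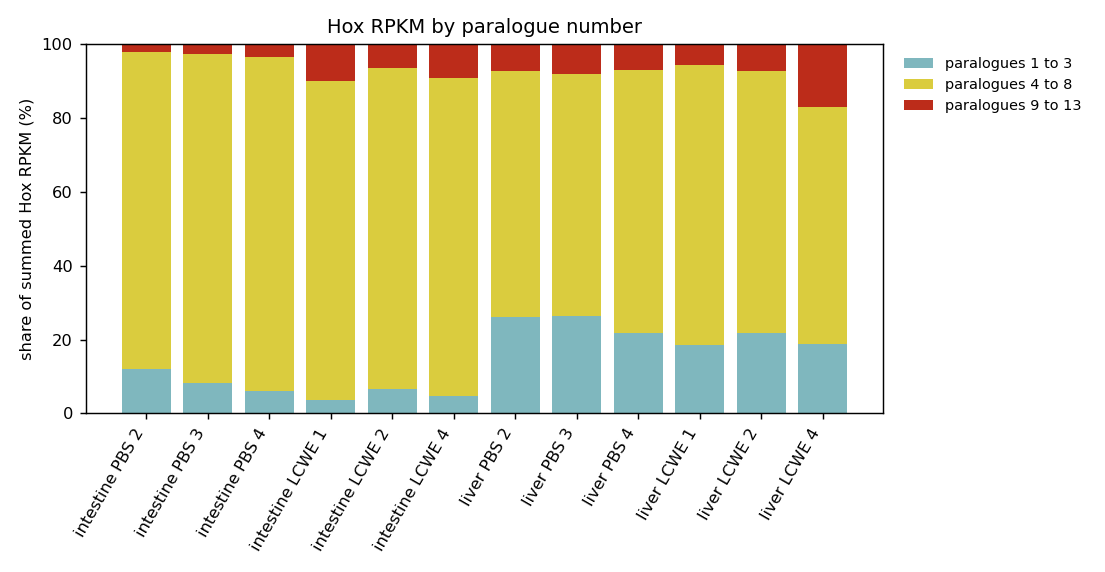
Share of the summed Hox RPKM held by paralogues 1 to 3, 4 to 8 and 9 to 13 in each of the 12 libraries, as stacked bars in percent. Groups 9 to 13 (red) take 2.25% to 3.63% in the PBS intestine and 6.45% to 10.1% in the LCWE intestine, and groups 1 to 3 (blue) take a larger share in liver than in the intestine.

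Non-coding genes of the B cluster also stood higher in LCWE. Mir196a-1 (chromosome 11, 96265164 to 96265265) lies 100.59 kb from Hoxb1, just 5′ of Hoxb9, and encodes a microRNA of the miR-196 family, which is known to act on Hox RNAs. Its hairpin stood at 0.514, 0.612 and 0.647 RPKM (PBS) against 25.3, 3.67 and 16.5 RPKM (LCWE), from 2, 2 and 2 reads and from 104, 13 and 57 reads. It had 0 reads in the 6 liver libraries. The difference was 3.49 ± 0.62 (adjusted p = 0.186 by limma), and the few PBS reads make it imprecise. The source of these reads was not tested, and the mature microRNA was not measured.

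Hoxb5os, antisense to Hoxb5, stood at 0.414, 1.21 and 1.94 RPKM (PBS) against 6.35, 1.99 and 7.38 RPKM (LCWE), and Hoxb3os at 1.12, 1.49 and 1.38 RPKM and at 2.90, 2.37 and 3.19 RPKM. These 3 were the members of the 17 listed non-coding Hox cluster genes that passed the filter, and 11 of the 17 had values at all. For each of the 3 LCWE stood wholly above PBS, as it did for 13.2% of all genes. Hotairm1, Hoxaas2, Hoxaas3 and Hoxd3os1, of the A and D clusters, did not pass the filter, and their groups overlapped. Mir10a, between Hoxb4 and Hoxb5, had at most 2 reads in any library. The strand setting of the libraries is not given, so reads on shared exon bases of antisense partners cannot be told apart. Hoxb3os covers 52.9% of the exon bases of Hoxb3 and 27.3% of those of Hoxb2, and Hoxb5os covers 3.59% of those of Hoxb5, while Hoxb4, Hoxb6, Hoxb7, Hoxb8 and Hoxb9 share exon bases with no other gene of the table. Hoxd4 shares 39.1% of its exon bases with Gm28230 and 13.2% with Hoxd3.

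The mature microRNAs of the clusters are shown because they tie the genes just described together, with the seed (bases 2 to 8) in capitals (RefSeq, GRCm38.p6). The miR-196 members share a seed across the A, B and C clusters, and the miR-10 members, from beside paralogue 4 of the B and D clusters, share another.
miR-196a-5p (Mir196a-1): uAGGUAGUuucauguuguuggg
miR-196b-5p (Mir196b): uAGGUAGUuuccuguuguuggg
miR-10a-5p (Mir10a): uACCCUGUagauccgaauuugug
miR-10b-5p (Mir10b): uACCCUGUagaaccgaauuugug
The miR-196 seed match ACTACCT occurs in the 3′ UTR of 9 of 31 Hox genes (29.0%), among them Hoxa4, Hoxa5, Hoxa7, Hoxa9, Hoxb1, Hoxb6, Hoxb7 and Hoxc8, and in 6.8% of 21153 genes. The miR-10 match ACAGGGT occurs in 3 of 31 (9.68%), among them Hoxa3 and Hoxb3, and in 12.9% of all genes.

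Hoxb8 holds the best full-length match to miR-196a of the 31 Hox 3′ UTRs, at chr11:96284888-96284909 on the plus strand of mm10, and the cutting of its RNA by this microRNA is textbook knowledge. It is shown with bases that pair in capitals, read against miR-196a-5p from the other end.
Hoxb8 site: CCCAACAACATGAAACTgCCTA
Of its 22 bases, 21 pair with miR-196a-5p, and the next best, in Hoxd8, pairs at 15. In the LCWE libraries both Hoxb8 and the Mir196a-1 hairpin stood above their PBS levels, as given above. A match is a description of the sequence only.

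Of the 31 members, 17 have a promoter window in the RefSeq table (250 bases before to 50 after a start), and of the 5′ B genes Hoxb8 has one. It is shown, at chr11:96281655-96281954 on the plus strand of GRCm38.p6, with matches of TTTATNG, a short form of the site of CDX factors, in capitals.
Hoxb8 promoter: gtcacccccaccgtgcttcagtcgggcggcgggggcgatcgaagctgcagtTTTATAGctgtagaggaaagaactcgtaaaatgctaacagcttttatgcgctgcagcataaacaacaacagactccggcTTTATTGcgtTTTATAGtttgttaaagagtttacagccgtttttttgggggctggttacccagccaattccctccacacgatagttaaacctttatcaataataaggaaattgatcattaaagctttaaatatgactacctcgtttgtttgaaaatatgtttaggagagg
It has 3 matches, and 2 of them overlap the letters TATAAA on the other strand. Searched on both strands, TTTATNG occurs in 11.1% of the 18 Hox windows (Hoxb8 and Hoxd4) and in 10.9% of all 32851 windows. The PBX and HOX site TGATTNAT occurs in 5.56% of Hox windows and 3.22% of all. The median count of CpG is 13.5 per Hox window and 7 over all windows.

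Genes that mark regions of the gut differed between the same libraries. Gata4, a factor of proximal small intestine, stood at 8.34, 5.31 and 3.79 RPKM (PBS) against 0.216, 1.68 and 0.280 RPKM (LCWE), which is the order of Hoxb6 to Hoxb9 reversed. Apoa4, an apolipoprotein of proximal enterocytes, had a mean of 3738 RPKM in PBS and 293 RPKM in LCWE. The summed level of the 11 proximal markers ran from 1726.5 to 9250 RPKM in PBS and from 323 to 675 RPKM in LCWE. Of 9 tested, 4 had LCWE wholly below PBS, while 2, among them the iron exporter Slc40a1, had it wholly above, against 6.15% and 13.2% of all genes.

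The 8 ileal markers summed to 456 to 3974 RPKM in PBS and to 4214 to 6361 RPKM in LCWE. Fabp6, the ileal bile acid binding protein, stood at 69.4, 1716 and 2991 RPKM (PBS) against 4837, 4843 and 3517 RPKM (LCWE), and Slc10a2, the ileal bile acid transporter, at 1.51, 17.6 and 68.4 RPKM and at 259, 70.4 and 112 RPKM. The groups did not overlap for either, Slc10a2 by little, and PBS 2 was the lowest library for each, as for the B cluster. Of the 8 ileal markers tested, these 2 stood wholly above and 0 wholly below, against 13.2% and 6.15% of all genes. By their mean on the log2(RPKM + 0.5) scale 7 were higher in LCWE, where 69% of all genes were, and 1, Nts, was lower (-0.19). In the LCWE libraries most of the ileal sum was Fabp6. Among colon markers Car4 was lower in LCWE without overlap (mean 73.8 and 41.4 RPKM), and Car1, Aqp8 and Insl5 stayed at or below 0.374 RPKM. None of the markers passed the adjusted threshold by limma or voom (limma adjusted p = 0.195 for Gata4 and 0.449 for Fabp6), and at an unadjusted p below 0.05 there were 6 proximal markers (Slc40a1 higher, the others lower), 1 ileal (higher) and 2 colon (1 each way), against 12.6% of all genes. The defining colon markers Car1 and Insl5 had 0 reads in the 3 PBS intestines, and 10 and 16 reads over the 3 LCWE intestines. Their part in the Hox differences was not tested.

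Markers of the muscle and connective tissue in which gut Hox genes are known to act overlapped between the groups. Myh11, smooth muscle myosin, stood at 539, 774 and 876 RPKM (PBS) against 631, 742 and 1053 RPKM (LCWE), and Acta2, smooth muscle actin, at 113, 176 and 180 RPKM and at 137, 168 and 216 RPKM. No tested marker of smooth muscle (8), fibroblasts (10) or endothelium (8) had separate groups. By their mean 6 of the 8, 10 of the 10 and 8 of the 8 were higher in LCWE, as 69% of all genes were, with medians of 0.14, 0.39 and 0.21 against 0.11. The 9 smooth muscle markers summed to 977 to 1522 RPKM in PBS and to 1117 to 1910 RPKM in LCWE. The 11 fibroblast markers summed to 94.6 to 128 RPKM in PBS and to 108 to 186 RPKM in LCWE. Of 8 neuronal and glial markers, Ret and Uchl1 stood wholly higher in LCWE, as 13.2% of all genes did, with differences of 0.34 and 0.41. The 13 listed neuronal and glial markers summed to 11.3 to 15.2 RPKM in PBS and to 13.1 to 19.5 RPKM in LCWE. The mast and pacemaker cell receptor gene Kit was the 1 of 8 leukocyte and progenitor markers to stand wholly higher (0.47), where 13.2% of all genes did. These 8 summed to 42.2 to 47.8 RPKM in PBS and to 43.2 to 66.3 RPKM in LCWE. Villus markers leaned lower, 10 of 12 by their mean, where 69% of all genes were higher. Of the 12, 3 stood wholly below and 1 wholly above, against 6.15% and 13.2% of all genes. The 1 above was Krt19, a keratin, with means of 776 RPKM in PBS and 1045 RPKM in LCWE. Lct, the lactase of the brush border, stood at 86.5, 30.1 and 3.02 RPKM (PBS) against 0.186, 1.46 and 0.138 RPKM (LCWE). Adipoq, made by fat cells, stood at 1.18, 8.01 and 14.2 RPKM (PBS) against 0.612, 0.2505 and 0.128 RPKM (LCWE). The part of these cell types in the Hox differences was not tested.

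**Figure D5:**
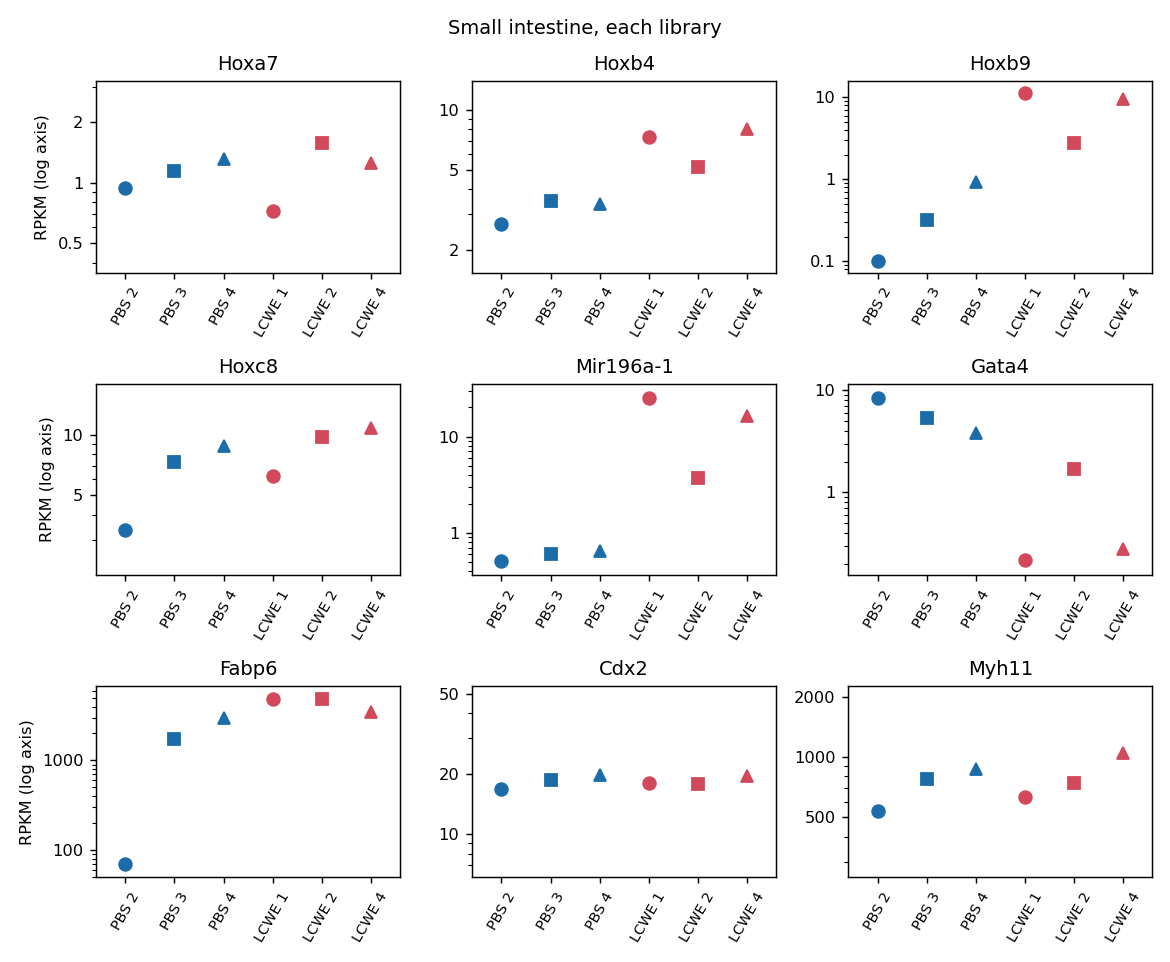
RPKM on log axes, each with its own range, in the 6 intestinal libraries for 4 Hox genes, Mir196a-1 and 4 genes beside them, with PBS in blue and LCWE in red. Hoxb9 and Mir196a-1 climb from PBS 2 to LCWE 1 while Gata4 runs the opposite way, Fabp6 is lowest in PBS 2, and Hoxa7, Cdx2 and Myh11 overlap between the groups.

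Partners and regulators of Hox genes are given next. All 8 tested PBX, MEIS and PKNOX cofactors were higher by their mean in LCWE, as 69% of all genes were, but 0 had separate groups. Their differences had a median of 0.24, against 0.11 over all genes. Pknox1 and Meis3 had the smallest p, with differences of 0.31 and 0.30. Of the CDX genes, which set the intestinal and posterior identity of epithelium, Cdx1 stood at 14.7, 17.6 and 19.4 RPKM (PBS) against 20.4, 21.4 and 26.4 RPKM (LCWE), with no overlap (0.39 ± 0.14, adjusted p = 0.357 by limma). Cdx2 stood at 16.9, 18.7 and 19.7 RPKM and at 18.0, 17.8 and 19.5 RPKM, a difference of 0.003 ± 0.096. Pdx1, a factor of duodenum and pancreas, did not exceed 0.184 RPKM.

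Of 12 tested genes of retinoic acid synthesis, breakdown and reception, 7 were higher and 5 lower by their mean. Cyp26b1, which breaks retinoic acid down, had the smallest p, at 0.949, 1.42 and 0.586 RPKM (PBS) against 1.32, 3.01 and 5.16 RPKM (LCWE) (1.19 ± 0.42, adjusted p = 0.343 by limma). Of 20 Polycomb and trithorax genes, 16 were higher and 4 lower by their mean, with 6 wholly above and 1 wholly below, against 13.2% and 6.15% of all genes. Jarid2, a Polycomb partner, differed by 0.46 ± 0.14 (0.308), from 7.24, 7.98 and 8.36 RPKM to 13.4, 9.63 and 10.2 RPKM. None of these lists had a member past the adjusted threshold in the intestine by limma or by voom, and at an unadjusted p below 0.05 there were 0 cofactors, 1 CDX gene, 2 retinoic acid genes and 1 Polycomb or trithorax gene, against 12.6% of all genes.

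In liver, Hox RNA was low in both groups. The sum over the 31 genes was 2.96 to 3.42 RPKM in PBS and 3.42 to 6.27 RPKM in LCWE, and Hoxb4 was the most abundant member in 6 of 6 libraries. It stood at 1.10, 1.02 and 1.10 RPKM (PBS) against 1.83, 1.37 and 1.68 RPKM (LCWE), from 126, 94 and 111 reads and from 178, 158 and 150 reads. The groups did not overlap, which 18.7% of all genes also showed in this direction. The difference of 0.43 ± 0.13 had an adjusted p of 0.129 by limma. Hoxb7, the 1 other member to pass the filter, stood at 0.551, 0.217 and 0.362 RPKM (PBS) against 0.290, 0.548 and 0.783 RPKM (LCWE) (0.24 ± 0.23, adjusted p = 0.629 by limma).

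Thus 0 of 2 Hox genes tested were called in liver, by limma or by voom, where 4.04% of 14404 genes were called by limma and 5.06% by voom. At an unadjusted p below 0.05 there was 1, Hoxb4, where 12.9% of all genes were higher at that p. Hoxb6, Hoxb8 and Hoxb9, so much higher in the LCWE intestine, stayed at or below 0.645, 0.102 and 0.358 RPKM in liver. Markers of leukocytes differed beside Hoxb4. Of 5 tested, 3 rose, among them Ptprc, the CD45 antigen of leukocytes, at 1.401, 1.57 and 1.91 RPKM (PBS) against 4.44, 4.22 and 4.22 RPKM (LCWE) (adjusted p = 0.00817 by limma). The 8 listed leukocyte and progenitor markers summed to 12.6 to 18.5 RPKM in the PBS liver and to 30.8 to 38.4 RPKM in the LCWE liver. Lyve1, of sinusoidal endothelium, and Vim, of mesenchyme and leukocytes, also rose. Their part in the Hoxb4 difference was not tested. PBS 2 stood apart among the livers, for example with Kmt2a, of the trithorax group, at 0.661 RPKM against 2.96 to 3.45 RPKM in the other 5 liver libraries. Without it the Hoxb4 difference was 0.44 (adjusted p = 0.111 by limma). The authors' deposited table lists 797 genes for liver and 0 of the 31 Hox genes.

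Whether the effect differed between the tissues was tested as the intestinal minus the liver difference in 1 fit over the 4 groups. Of the 19 Hox genes tested in it, 0 passed by limma (adjusted p below 0.05), where 0.204% of 18619 genes passed in the direction of a higher intestinal effect, and 0 passed by voom. There were 9 at an unadjusted p below 0.05, each with the higher effect in the intestine, where 5.51% of all genes were. Among these, Hoxb5, Hoxb8, Hoxb9 and Hoxc9 passed the filter only with the help of their LCWE intestine values. Their place in that count is therefore not independent of the difference. Hoxb8 came nearest, with 2.08 ± 0.43 (adjusted p = 0.055), then Hoxb9 with 2.80 ± 0.62 (0.0702) and Hoxb3 with 0.91 ± 0.22 (0.0825). Of the 9, all but Hoxb4 and Hoxb7 had means below 0.5 RPKM in both liver groups, so the pseudocount of 0.5 shrank their liver differences. For these genes the test largely repeats the intestinal one, and their small liver SD entered the shared spread. PBS and LCWE liver means were 0.0711 and 0.183 RPKM for Hoxb9 and 0.0961 and 0.321 RPKM for Hoxb6. For Hoxb8 they were 0.0610 and 0.0437 RPKM. Mir196a-1 had a value of 3.49 ± 0.69 (adjusted p = 0.0488 by limma), which is its intestinal difference itself, since it had 0 reads and so an SD of 0 in liver, and that SD entered the shared spread. Leaving out intestine LCWE 2 gave 6 Hox genes past the threshold and leaving out intestine PBS 4 gave 2. The same limits hold for these, and the range over all genes is given at the end.

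The PBS groups of the 2 tissues were also compared. All 10 members that passed the filter in the PBS libraries were lower in liver, with no overlap, where 60.7% of 17253 genes were called lower there and 63.3% had no overlap in that direction. For 8 of the 10 the direction was given by the filter, since they were below 0.5 RPKM in every PBS liver and could pass only with all 3 intestines at or above it. Their values are a description, and only Hoxb4 and Hoxb7 had a PBS liver library at 0.5 RPKM or more. Leaving out any 1 intestinal library left 2 calls, since genes near 0 in liver then miss the filter of 3 libraries. This direction depends on scaling. Over all genes the median difference, liver minus intestine, was -0.71, and 21.8% of calls were higher in liver, against 0.01 and 50.3% after quantile scaling and -0.06 and 47.5% after median-ratio scaling. Differences of Hox genes are therefore read against that shift.

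On the log2(RPKM + 0.5) scale Hoxc8 stood furthest below it, at -3.62 ± 0.32 (adjusted p = 4.8e-05 by limma), with 0.0475, 0.0197 and 0.0269 RPKM in the 3 PBS livers, where the mean of the PBS intestine was 206.3 times as high. By the ratio of means Hoxc6 led, at 275.6 times. Hoxb7, Hoxc6 and Hoxb6 differed by -2.80, -2.68 and -2.48, Hoxa7 by -1.63, Hoxc4 by -1.43, Hoxb4 by -1.22 and Hoxd4 by -1.20. Hoxd4 had 0 reads in the 3 PBS livers, so its mean level was at least 76.6-fold lower there (3 reads over the group as the floor). The mean of Hoxb4 was 2.97 times as high in the intestine. Hoxa5 (-0.99) and Hoxb3 (-0.96) lay close to the shift and lost their calls with quantile scaling, at -0.066 (adjusted p = 0.640 by limma) and -0.077 (0.645).

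Of the partners, 6 of 7 tested cofactors were lower in the control liver, where 60.7% of all genes were. Their median was -0.84, against the shift of -0.71, with Meis3 at -1.60, Meis2 above the shift at -0.37 and Pknox1 not called. Cdx1 and Cdx2 were near 0 in liver, at most 0.0602 and 0.0699 RPKM in any library, and fell by 5.04 and 5.16 on the log2(RPKM + 0.5) scale. Of 20 Polycomb and trithorax genes 15 were lower and 1 higher, with a median of -0.97 and with Ezh2, the histone methyltransferase, at -2.72. The retinoic acid genes split, with 6 of 13 higher in liver and 4 lower. Of all 17253 genes tested 13381 were called, and 21.8% of those calls were higher in liver. Cyp26a1, which breaks retinoic acid down, was higher by 4.44 and Aldh1a1, which makes it, by 2.88, while the synthesis genes Aldh1a2 and Aldh1a3 were lower, at -3.52 and -3.27. All 8 tested smooth muscle markers were lower in liver, and the part of cell makeup in the tissue difference of Hox genes was not tested. In these lists Pbx3, Meis3, Cdx1, Cdx2, Aldh1a2, Aldh1a3, Cnn1, Actg2 and Synpo2 were below 0.5 RPKM in every PBS liver. They could pass the filter only through the intestine, so their direction was given by it. Cyp26a1 and Rxrg were below 0.5 RPKM in every PBS intestine, so the filter gave their direction likewise.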

How the data were processed

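RNA was isolated with TRIzol and cleared of DNA before Illumina sequencing, per the labels' protocols. The authors deposited RPKM per gene and library. From the steps of these values whole reads were recovered for 100% of values, within 0.001. As tools and build, the submitters' processing notes give Subread 1.5.1 and featureCounts, Trimmomatic 0.36, edgeR 3.12.1 and mm10, with no roles. An aligner was not given in the sources used here. Of 16 library columns, 12 matched samples and 4 matched none and were not used. Genes passing 0.5 RPKM in 3 or more libraries of a comparison were tested with limma 3.58.1 in R 4.3.3 (trend, two-sided, Benjamini-Hochberg over all genes), and with voom on the recovered reads as an alternative. The log2 scale with its pseudocount of 0.5 understates the fold of low genes. From the authors' deposited table of log2 fold changes, p-value and false discovery rate, only counts of listed genes were taken. The tests were tried on simulated data. Members and lists were chosen with earlier results of these data known, and the test of the tissue difference was added after the data were seen. Besides Hox genes, the text names list members past the threshold or with the 3 smallest p, region and cell markers given per library, and some members chosen after their values were seen (Slc40a1, Car4, Nts, Ret, Uchl1, Kit, Lct, Krt19, Adipoq, Kmt2a, Hotairm1, Hoxaas2, Hoxaas3 and Hoxd3os1). Some items are not reported here.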

Additional observations from a re-analysis of the deposited data

How the results depend on the processing

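In the intestine 0 Hox genes and 0 genes overall were called by limma under the pseudocounts, filters, scalings, robust moderation, voom and the replicate block (replicate number as a block, 0 calls). With 1 fit over 4 groups there were 213 calls, 7 of them Hox genes higher (adjusted p 0.0144 for Hoxb9, 0.0157 for Hoxb8, 0.0171 for Hoxb3, 0.0201 for Hoxb4, 0.0251 for Hoxb7, 0.0287 for Hoxb6 and 0.0451 for Hoxc9). Leaving out 1 library gave 0 to 70 calls (70 without LCWE 1, 4 without LCWE 2), with 0 Hox genes. Small differences changed sign. Hoxa7 was -0.090 with quantile and -0.060 with median-ratio scaling, and -0.15 to 0.23 without 1 library. Under the block Hoxc5, Hoxc4 and Hoxa6 were 0.0905, 0.083 and 0.16. Without 1 library Hoxc5 ran from -0.17 to 0.098, Hoxa5 from -0.18 to 0.0068, Hoxa6 from -0.24 to 0.12 and Hoxd8 from -0.0088 to 0.236. In liver 335 genes were called with no filter, 898 with 1 fit over 4 groups, 24 with the replicate block and 55 to 943 without 1 library (943 without PBS 2), with 0 Hox genes throughout. For the control tissues the Hox count of 10 was 19 with no filter, 5 with the filter at RPKM 1 and 17 with 1 fit over 4 groups, as more or fewer genes were tested, and 2 to 10 without 1 library. For the tissue difference 137 genes passed, 28 with the replicate block and 20 to 461 without 1 library (Hox genes 0 to 6). Summing log2 values in place of RPKM gave groups 9 to 13 a share of 5.84% in PBS and 11.7% in LCWE intestine. Same-numbered libraries did not deviate together (r from -0.102 to 0.115). Low read counts limit members under 0.1 RPKM.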
